A study of Mus musculus with 24 samples.

Results

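A set of 10 genes of the myosin thick filament and its regulation, chosen by symbol, was followed in mouse plantaris, an ankle extensor and toe flexor of the hindlimb. They comprise 6 light chain genes (Myl1, Mylpf, Myl3, Myl2, Myl4 and Myl6b), 2 light chain kinase genes (Mylk2 and Mylk4) and 2 genes of myosin-binding protein C (Mybpc1 and Mybpc2). All 10 had a probe set of their own, and all 10 were among the 14499 genes tested, of 19937 genes with a probe set that carries a single symbol. Each of 4 groups held 6 mice aged 3 months, with 1 array per mouse. The groups were overloaded Mstn-/- mice, Mstn-/- mice without overload, overloaded wildtype mice and wildtype mice without overload. Mstn-/- mice lack myostatin, a growth factor that muscle makes and that limits muscle size. The sources used here give neither the removed part of the gene, the strain nor the length of overload. Overload was surgical, on both legs, by taking out the soleus and most of the gastrocnemius under pentobarbitone at 50 mg/kg. The untreated mice had no operation, so overload and surgery differ together.

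A myosin molecule joins a pair of heavy chains to light chains of 2 kinds, essential and regulatory, which stiffen the lever arm of each head. Fast fibres use the essential chain of Myl1 and the regulatory chain of Mylpf. Slow fibres, like the heart ventricle, use Myl3 and Myl2. Phosphorylation of the regulatory chain by a calcium- and calmodulin-dependent kinase raises the force of later twitches, and myosin-binding protein C tethers the heads and tunes their reach for actin.

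Values are log2 of the deposited array intensity, and a difference between groups is a difference of mean log2 values with its standard error (SE) from limma, fitted to all 24 arrays. A gene passed where its Benjamini-Hochberg adjusted p over the 14499 genes was below 0.05. Array medians lay between 139 and 147 in intensity. Mstn itself was lower in untreated Mstn-/- than in untreated wildtype muscle (log2 difference -1.33 ± 0.13, adjusted p = 2.7e-08). The overloaded groups did not differ by the test (-0.15 ± 0.13, adjusted p = 0.39), so the genotype labels of overloaded mice have no such check. Mstn was also lower with overload than without, by -1.86 ± 0.13 in wildtype and -0.68 ± 0.13 in Mstn-/- (adjusted p = 1.8e-12 and 5.6e-05). The 9 markers of skeletal muscle fibres were above the detection filter in every group. Their mean log2 intensity lay between 13.18 and 13.31 in overloaded Mstn-/-, between 13.34 and 13.42 in untreated Mstn-/-, between 12.84 and 13.17 in overloaded wildtype and between 13.40 and 13.42 in untreated wildtype muscle. The overloaded wildtype array of replicate 3 had the lowest of these values and stood apart from its group. Leaving it out changed no call of the 10 genes.

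The fast light chain genes kept nearly the same level in all 4 groups. Mylpf was slightly higher without myostatin, and neither Myl1 nor Mylpf passed the test for overload. Myl1, which encodes both fast essential chains, had 13.49 to 13.78 (median 13.68) in overloaded and 13.48 to 13.67 (median 13.58) in untreated Mstn-/- muscle. In wildtype Myl1 had 13.52 to 13.70 (median 13.62) under overload and 13.38 to 13.63 (median 13.55) without. All 4 ranges overlapped. The overload difference of Myl1 was 0.10 ± 0.05 in Mstn-/- (95% confidence interval -0.01 to 0.21, adjusted p = 0.10) and 0.07 ± 0.05 in wildtype (-0.04 to 0.18, adjusted p = 0.27). Without the overloaded Mstn-/- array of replicate 5 the Mstn-/- difference was 0.14 and passed (adjusted p = 0.025).

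Mylpf, the fast regulatory chain, had 12.69 to 12.86 (median 12.78) in overloaded and 12.63 to 12.83 (median 12.72) in untreated Mstn-/- muscle. Wildtype muscle had 12.42 to 12.73 (median 12.61) under overload and 12.49 to 12.60 (median 12.54) without. Every untreated Mstn-/- array was above every untreated wildtype array, while the overloaded groups overlapped. The genotype difference was 0.18 ± 0.05 in untreated muscle (1.13-fold higher in Mstn-/-, adjusted p = 0.012) and 0.17 ± 0.05 in overloaded muscle (1.13-fold higher, adjusted p = 0.0079). Overload moved Mylpf by 0.06 ± 0.05 in either genotype, with intervals of -0.04 to 0.16 in Mstn-/- and -0.04 to 0.17 in wildtype. After quantile normalization the overloaded genotype difference was 0.12 and missed the threshold (adjusted p = 0.051).

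**Figure D1:**
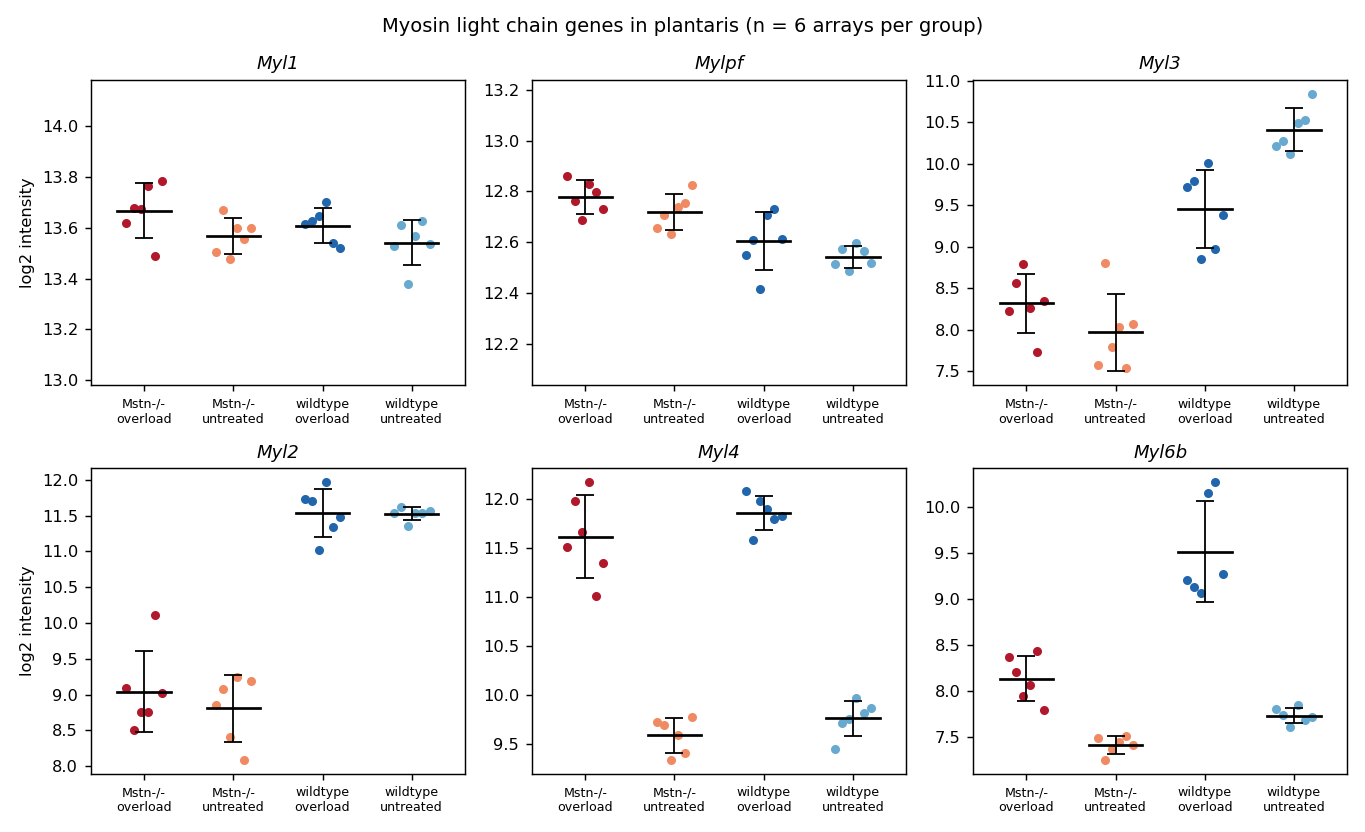
Log2 intensity (y axis) of the 6 light chain genes in overloaded and untreated Mstn-/- and wildtype plantaris (x axis). Points are single arrays, bars are means with the SD of 6 arrays, and each panel has its own scale. Myl3 and Myl2 were low in both Mstn-/- groups, Myl4 was high in both overloaded groups, and Myl6b was highest in overloaded wildtype muscle.

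The slow light chain genes Myl3 and Myl2 were far lower in Mstn-/- muscle in both states. Overload lowered Myl3 in wildtype muscle, while Myl2 did not pass for overload in either genotype. Their promoters are shown because these genes had the 2 largest genotype differences of the 10 in untreated muscle. The windows are the 250 bases before the annotated start, from RefSeq on GRCm38.p6, on the plus strand, at chr9:110763428-110763677 for Myl3 and chr5:122092474-122092723 for Myl2 (the outermost of 2 starts listed for Myl2). Capitals mark motif matches on either strand. The first motif searched was the E-box, CANNTG, which myogenic factors such as MyoD bind. The MCAT element, bound by TEAD factors, was searched as CATTCC. The third was the TATA box, read here as TATAAA and as its reverse complement. The MEF2 site and the CArG box, which serum response factor binds, were searched by their consensus.
Myl3: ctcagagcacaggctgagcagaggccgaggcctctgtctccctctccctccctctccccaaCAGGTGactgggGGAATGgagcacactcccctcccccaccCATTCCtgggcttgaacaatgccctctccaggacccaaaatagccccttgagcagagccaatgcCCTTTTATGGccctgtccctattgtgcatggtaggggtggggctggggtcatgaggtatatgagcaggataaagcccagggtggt
Myl2: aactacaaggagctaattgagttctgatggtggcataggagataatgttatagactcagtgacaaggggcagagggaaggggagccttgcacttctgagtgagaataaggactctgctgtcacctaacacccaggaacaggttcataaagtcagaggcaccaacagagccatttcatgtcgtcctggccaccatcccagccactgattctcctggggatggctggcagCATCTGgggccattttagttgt
The Myl3 window held 1 E-box, 2 MCAT matches and 1 CArG box, and none of these overlapped. The Myl2 window held 1 E-box and no match to the other motifs. Among 32851 promoter windows of the same length, 66.2% held an E-box, 12.6% an MCAT match, 12.4% a TATA box, 2.92% a MEF2 match and 1.47% a CArG box. A match describes letters only and is not a measured binding site.

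Myl3, the slow essential chain, had 7.73 to 8.79 (median 8.31) in overloaded and 7.54 to 8.81 (median 7.91) in untreated Mstn-/- muscle. It had 8.85 to 10.005 (median 9.55) in overloaded and 10.12 to 10.85 (median 10.38) in untreated wildtype muscle. No Mstn-/- array reached the lowest wildtype array, and the 2 wildtype groups did not overlap. Myl3 was 5.43-fold lower in untreated Mstn-/- than in untreated wildtype muscle (log2 difference -2.44 ± 0.21, adjusted p = 3.7e-09). Under overload it was 2.19-fold lower (-1.13 ± 0.21, adjusted p = 1.1e-04). Overload lowered it 1.94-fold in wildtype (-0.96 ± 0.21, adjusted p = 2.1e-04). In Mstn-/- muscle the overload difference was 0.35 ± 0.21 (interval -0.07 to 0.77, adjusted p = 0.14), and without the untreated Mstn-/- array of replicate 2 it was 0.52 (adjusted p = 0.022). The responses differed between the genotypes by 1.31 ± 0.29 on the log2 scale (Mstn-/- minus wildtype, adjusted p = 0.0025).

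Myl2, the slow regulatory chain, had 8.50 to 10.11 (median 8.89) in overloaded and 8.09 to 9.24 (median 8.97) in untreated Mstn-/- muscle. It had 11.01 to 11.97 (median 11.59) in overloaded and 11.36 to 11.62 (median 11.54) in untreated wildtype muscle. The genotypes did not overlap, and within each genotype the overloaded and untreated arrays did. The genotype difference of Myl2 was -2.72 ± 0.21 in untreated muscle (6.58-fold lower in Mstn-/-, adjusted p = 7.6e-10). In overloaded muscle it was -2.50 ± 0.21 (5.65-fold lower, adjusted p = 3.6e-09), and leaving out any 1 array gave -2.71 to -2.39. The overload difference was 0.23 ± 0.21 in Mstn-/- (interval -0.20 to 0.66, adjusted p = 0.35) and 0.01 ± 0.21 in wildtype (interval -0.42 to 0.44, adjusted p = 0.97). The difference of responses had an interval of -0.39 to 0.83 and did not pass (adjusted p = 0.69). By level both Mstn-/- groups stood below both wildtype groups, and the order of overloaded and untreated muscle within a genotype was not apart beyond the spread. Heart muscle also uses Myl2 and Myl3. Of 7 heart markers, 5 or 6 were above the filter in each group. Their summed intensity had medians of 873 in overloaded and 957 in untreated Mstn-/- muscle, and of 966 in overloaded and 1011 in untreated wildtype muscle. By geometric mean the 7 ran from 72.8 (Tbx5, overloaded Mstn-/-) to 243 (Gata4, untreated wildtype). The filter was at 98.9 and array medians lay between 139 and 147, so passing the filter is a low bar. In whole muscle, fewer slow fibres and less RNA per fibre cannot be told apart.

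Of the 2 other light chain genes, Myl4 rose about 4-fold in both genotypes under overload, and Myl6b rose more in wildtype. Myl4, the essential chain of embryonic muscle and the heart atrium, had 11.003 to 12.17 (median 11.58) in overloaded and 9.34 to 9.78 (median 9.64) in untreated Mstn-/- muscle. Wildtype muscle had 11.58 to 12.08 (median 11.85) under overload and 9.44 to 9.97 (median 9.78) without. Every overloaded array was above every untreated array. Overload raised Myl4 4.06-fold in Mstn-/- (2.02 ± 0.14, adjusted p = 3.9e-12) and 4.28-fold in wildtype (2.10 ± 0.14, adjusted p = 7.3e-13). The difference of responses was -0.07 ± 0.19, with an interval of -0.47 to 0.32 (adjusted p = 0.85). Between genotypes Myl4 differed by -0.25 ± 0.14 under overload (interval -0.53 to 0.03, adjusted p = 0.16) and by -0.17 ± 0.14 without (interval -0.45 to 0.11, adjusted p = 0.41). Leaving out the overloaded Mstn-/- array of replicate 4 made the first of these -0.36 (adjusted p = 0.028).

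Myl6b encodes another essential chain, known from slow and non-muscle myosin. Its arrays ran from 7.80 to 8.43 (median 8.14) in overloaded and from 7.25 to 7.51 (median 7.43) in untreated Mstn-/- muscle. In wildtype they ran from 9.07 to 10.27 (median 9.24) under overload and from 7.61 to 7.85 (median 7.73) without. The overloaded wildtype arrays fell in 2 clusters, with replicates 4 and 5 at 10.16 and 10.27 and the other 4 between 9.07 and 9.27. No pair of groups compared overlapped. Overload raised Myl6b 1.65-fold in Mstn-/- (0.72 ± 0.16, adjusted p = 3.6e-04) and 3.45-fold in wildtype (1.79 ± 0.16, adjusted p = 2.6e-10). The responses differed by -1.06 ± 0.23 (adjusted p = 0.0018), and by -1.15 to -0.91 with any 1 array left out. Myl6b was 2.61-fold lower in overloaded Mstn-/- than in overloaded wildtype muscle (-1.38 ± 0.16, adjusted p = 3.1e-07). In untreated muscle the difference was -0.32 ± 0.16 (adjusted p = 0.16). With the spread of the untreated arrays alone this difference passed (adjusted p = 5.7e-04).

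Both kinase genes fell under overload in both genotypes, and both were higher in overloaded Mstn-/- than in overloaded wildtype muscle. Mylk2 encodes the skeletal muscle light chain kinase, which phosphorylates the regulatory chain. It had 10.48 to 11.61 (median 11.10) in overloaded and 12.39 to 12.59 (median 12.56) in untreated Mstn-/- muscle. It had 9.57 to 10.49 (median 10.26) in overloaded and 11.94 to 12.15 (median 12.08) in untreated wildtype muscle. Overloaded and untreated arrays did not overlap in either genotype, and between overloaded groups the ranges met in 1 Mstn-/- and 1 wildtype array. The fall was 2.73-fold in Mstn-/- (-1.45 ± 0.13, adjusted p = 7.7e-10) and 3.65-fold in wildtype (-1.87 ± 0.13, adjusted p = 3.3e-12). Mylk2 was 1.85-fold higher in overloaded Mstn-/- than in overloaded wildtype muscle (0.89 ± 0.13, adjusted p = 1.0e-05) and 1.38-fold higher in untreated Mstn-/- than in untreated wildtype muscle (0.47 ± 0.13, adjusted p = 0.012). The difference of responses, 0.42 ± 0.19, did not pass after adjustment (interval 0.04 to 0.80, adjusted p = 0.13). It was 0.54 (adjusted p = 0.022) without the overloaded Mstn-/- array of replicate 2.

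Mylk4 encodes a kinase of the same family. Its promoter window is shown because its overload response differed most between the genotypes among the 10 genes. The 250 bases, on the minus strand at chr13:32783965-32784214, held 3 E-boxes and 1 MEF2 match, which did not overlap and are in capitals.
Mylk4: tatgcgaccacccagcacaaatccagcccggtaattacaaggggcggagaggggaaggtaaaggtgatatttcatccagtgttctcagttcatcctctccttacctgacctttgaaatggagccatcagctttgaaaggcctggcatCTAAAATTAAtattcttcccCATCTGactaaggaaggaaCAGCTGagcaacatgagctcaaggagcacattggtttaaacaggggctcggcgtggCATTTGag
Mylk4 had 11.46 to 12.34 (median 11.94) in overloaded and 12.34 to 12.80 (median 12.64) in untreated Mstn-/- muscle, ranges that touch without overlap. It had 8.86 to 10.66 (median 10.06) in overloaded and 12.18 to 12.61 (median 12.28) in untreated wildtype muscle. All overloaded wildtype arrays lay below all others. The fall under overload was 1.65-fold in Mstn-/- (-0.72 ± 0.20, adjusted p = 0.0028) and 5.31-fold in wildtype (-2.41 ± 0.20, adjusted p = 5.4e-11). The responses differed by 1.68 ± 0.28 (adjusted p = 1.8e-04), and by 1.47 to 1.83 with any 1 array left out. In overloaded muscle Mylk4 was 3.89-fold higher in Mstn-/- than in wildtype (1.96 ± 0.20, adjusted p = 4.7e-08). In untreated muscle the difference was 0.27 ± 0.20 (interval -0.13 to 0.68, adjusted p = 0.36), and it passed with the spread of the untreated arrays alone (adjusted p = 0.025).

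**Figure D2:**
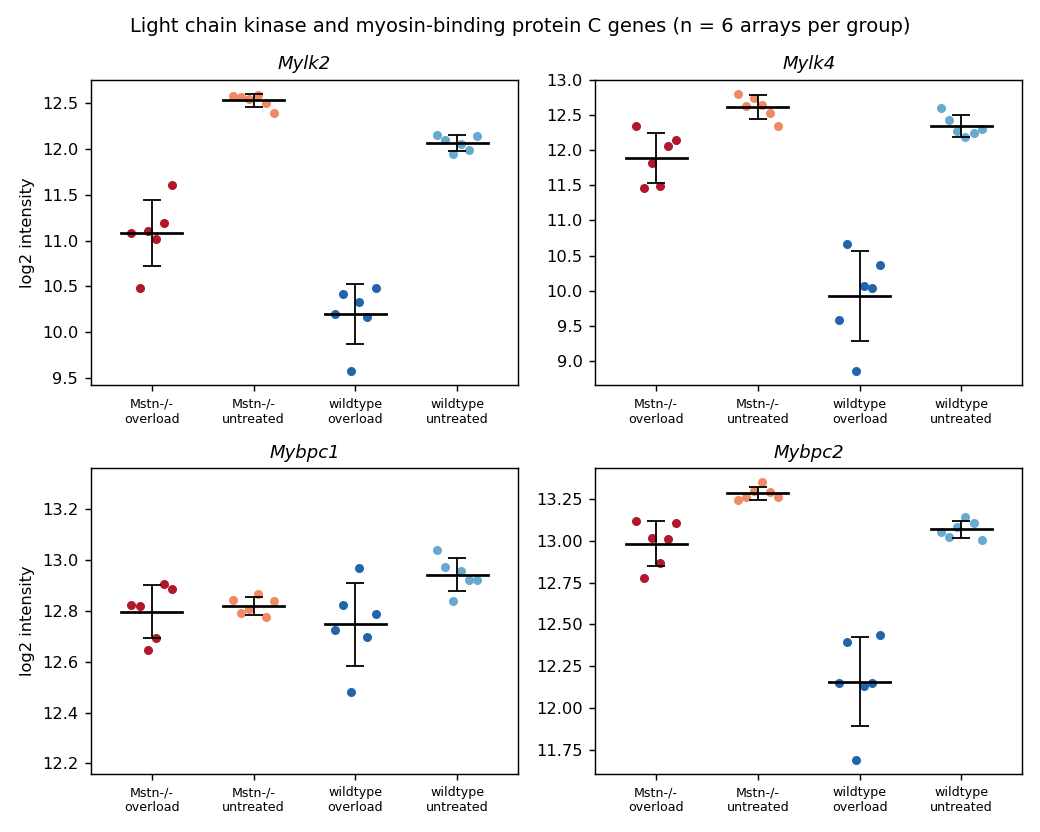
Log2 intensity (y axis) of the kinase genes Mylk2 and Mylk4 and the myosin-binding protein C genes Mybpc1 and Mybpc2 by group (x axis). Points are single arrays and bars are means with the SD of 6 arrays, on a scale of its own in each panel. Overloaded wildtype muscle had the lowest mean in all 4 panels, and for Mylk4 and Mybpc2 all its arrays lay below all others.

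The fast isoform of myosin-binding protein C fell under overload in both genotypes, more so in wildtype, while the slow isoform moved little. Mybpc2, the fast isoform, had 12.78 to 13.12 (median 13.01) in overloaded and 13.25 to 13.35 (median 13.28) in untreated Mstn-/- muscle. It had 11.69 to 12.44 (median 12.15) in overloaded and 13.00 to 13.14 (median 13.07) in untreated wildtype muscle. Neither genotype had overlap between overloaded and untreated arrays. Overload lowered Mybpc2 1.23-fold in Mstn-/- (-0.30 ± 0.08, adjusted p = 0.0030) and 1.88-fold in wildtype (-0.91 ± 0.08, adjusted p = 4.2e-10), and the responses differed by 0.61 ± 0.12 (adjusted p = 8.4e-04). It was 1.77-fold higher in overloaded Mstn-/- than in overloaded wildtype muscle (0.82 ± 0.08, adjusted p = 5.1e-08). In untreated muscle the groups did not overlap and the difference was 0.22 ± 0.08, short of the threshold (adjusted p = 0.066). With the spread of the untreated arrays alone it passed (adjusted p = 0.0013).

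Mybpc1, the slow isoform, which fast fibres also express, had 12.65 to 12.90 (median 12.82) in overloaded and 12.78 to 12.87 (median 12.82) in untreated Mstn-/- muscle. It had 12.48 to 12.97 (median 12.76) in overloaded and 12.84 to 13.04 (median 12.94) in untreated wildtype muscle. All groups overlapped. Overload lowered it 1.15-fold in wildtype (-0.20 ± 0.06, adjusted p = 0.0066). In Mstn-/- muscle the overload difference was -0.02 ± 0.06 (interval -0.15 to 0.10, adjusted p = 0.75). The genotype difference was 0.05 ± 0.06 under overload (adjusted p = 0.56) and -0.12 ± 0.06 without (adjusted p = 0.16). With the spread of the untreated arrays alone the second of these passed (adjusted p = 0.049). The difference of responses, 0.17 ± 0.09, did not pass (adjusted p = 0.18).

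Counted over the 10 genes, overload in Mstn-/- changed 5, beside 60.6% of all tested genes. Of these, 2 were higher, Myl4 and Myl6b (27.1% of tested genes were), and 3 were lower, Mylk2, Mylk4 and Mybpc2 (33.5% were). For the same 5 genes the overloaded and untreated Mstn-/- arrays did not overlap, which held for 39.9% of tested genes. Overload in wildtype changed 7, beside 65.9% of tested genes. Again Myl4 and Myl6b were higher (30.3% of tested genes), and 5 were lower, Myl3, Mylk2, Mylk4, Mybpc1 and Mybpc2 (35.6%). The arrays did not overlap for 6 of them (43% of tested genes), all but Mybpc1. The shares that passed were near the background in both overload comparisons. Changes of at least 2-fold were made by 2 of the 10 in Mstn-/- (4.6% of tested genes) and by 4 of the 10 in wildtype (8.24%).

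Between genotypes 7 of the 10 differed in overloaded muscle, beside 36.5% of tested genes. Mylpf, Mylk2, Mylk4 and Mybpc2 were higher in Mstn-/- (17.5% of tested genes were), and Myl3, Myl2 and Myl6b were lower (19% were). The arrays did not overlap for 5 of the 7 (15.5% of tested genes), the exceptions being Mylpf and Mylk2. In untreated muscle 4 of the 10 differed, beside 21.3% of tested genes. Mylpf and Mylk2 were higher in Mstn-/- (11.1% of tested genes were), and Myl3 and Myl2 were lower (10.2% were). These 4, with Myl6b and Mybpc2, had no overlap between genotypes (12% of tested genes). Genotype differences of at least 2-fold held for Myl3, Myl2, Myl6b and Mylk4 in overloaded muscle (0.538% of tested genes) and for Myl3 and Myl2 in untreated muscle (0.359%).

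The overload response differed between genotypes for 4 of the 10, beside 17.4% of tested genes. As Mstn-/- minus wildtype it was higher for Myl3, Mylk4 and Mybpc2 (8.92% of tested genes) and lower for Myl6b (8.44%). For Myl3, Mylk4 and Myl6b the difference was at least 2-fold (0.621% of tested genes). The median overload difference over the 10 genes was 0.08 in Mstn-/- and -0.09 in wildtype, beside -0.06 in both over all tested genes. The 5 comparisons share arrays, so these counts are not independent of each other. The 10 genes were also chosen with earlier results of these data known, so a count above the background is no test of the family.

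**Figure D3:**
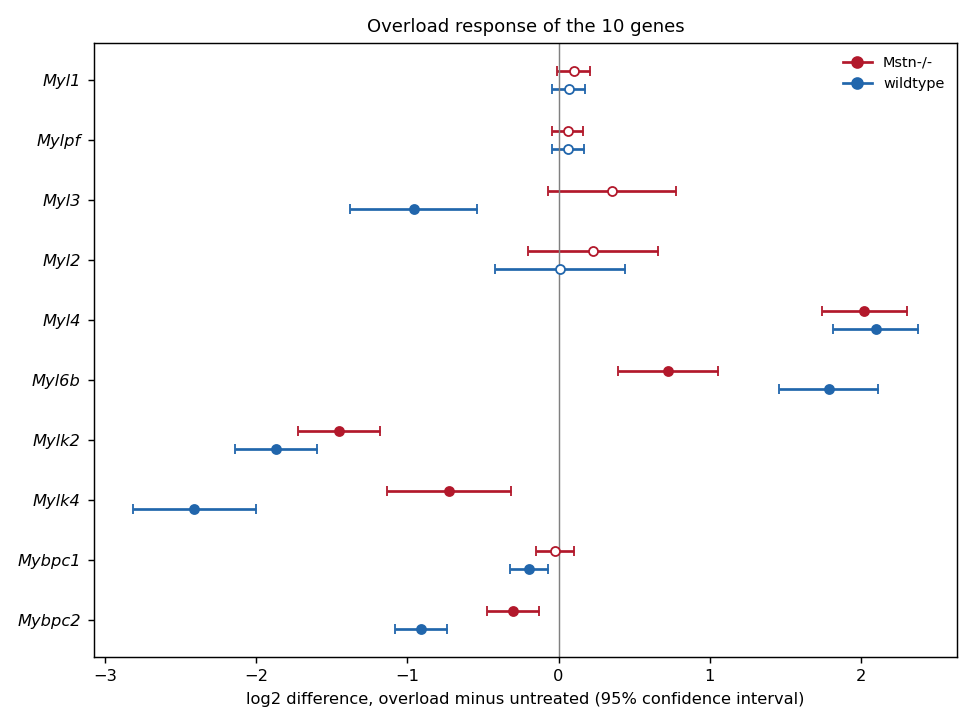
Log2 difference, overload minus untreated (x axis), of each of the 10 genes (y axis) in Mstn-/- and in wildtype muscle, with 95% confidence intervals from limma. Filled points passed at an adjusted p of 0.05 and open points did not. Mylk4 was at -0.72 in Mstn-/- and -2.41 in wildtype, while Myl4 was near 2 in both.

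**Figure D4:**
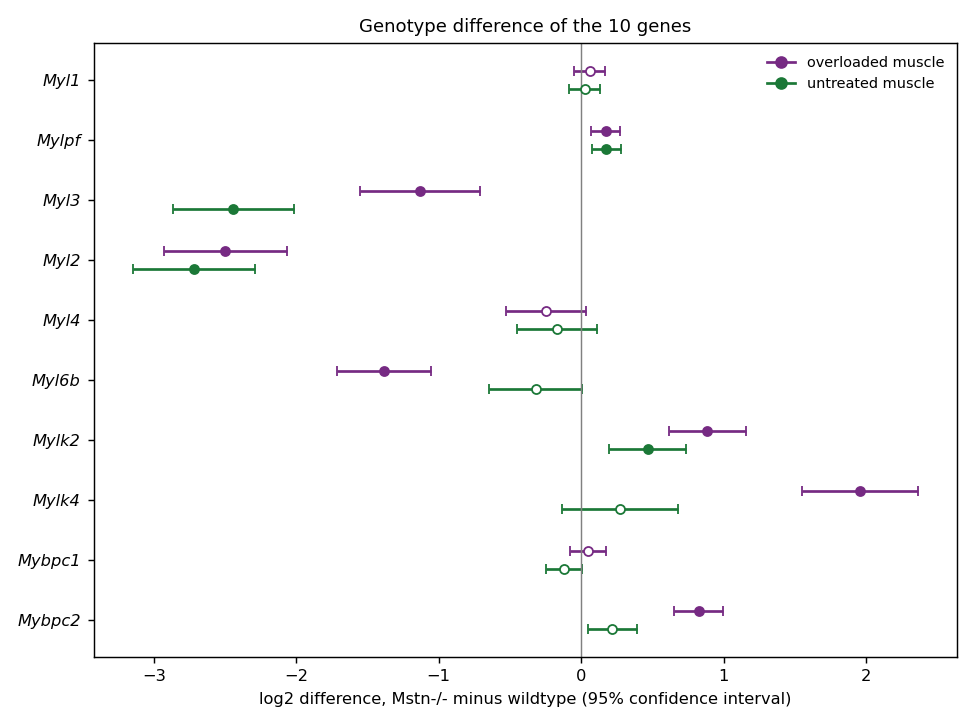
Log2 difference, Mstn-/- minus wildtype (x axis), of each of the 10 genes (y axis) in overloaded and in untreated muscle, with 95% confidence intervals and filled points as for the overload response. Myl2 stood at -2.50 and -2.72, and Mylk4 at 1.96 in overloaded and 0.27 in untreated muscle.

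The genes most like 4 of the members were found by the smallest root mean square difference between log2 profiles, each centred on its own mean, over the 24 arrays. Nearest to Mylk4 were Plcd4, a phospholipase C (0.30), Dhrs7c, a dehydrogenase of the sarcoplasmic reticulum (0.30), and Klhl33 (0.33). Plcd4 fell 1.77-fold in Mstn-/- and 5.01-fold in wildtype muscle under overload (adjusted p = 1.7e-05 and 2.1e-13). Nearest to Myl2 were slow myosin heavy chain Myh7 (0.64), Myl3 (0.71) and P3h2, a collagen prolyl hydroxylase (0.86). These distances are wider than those of Mylk4, and the Myh7 response to overload was 0.02 ± 0.26 in Mstn-/- and 0.73 ± 0.26 in wildtype (adjusted p = 0.96 and 0.017). Myl3 had as its nearest Pcp4l1 (0.58), Grb14, an adaptor of insulin signalling (0.64), and Mpped2 (0.64). Myl4 had Mfap2, a microfibril protein (0.23), Cmtm3 (0.25) and Cd52, a leukocyte surface protein (0.25). Mfap2 rose 4.11-fold in Mstn-/- and 4.55-fold in wildtype under overload (adjusted p = 9.9e-14 and 6.6e-15). Among the 10 genes themselves the closest profiles were those of Myl1 and Mylpf (0.12), and Mylk2 and Mylk4 were 0.45 apart.

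Light chain genes outside the set belong mostly to smooth muscle and non-muscle myosin. Of 6 such genes, 4 rose under overload in Mstn-/- and 4 rose and 1 fell in wildtype. Over all tested genes 27.1% rose and 33.5% fell in Mstn-/-, and 30.3% rose and 35.6% fell in wildtype. These shares are also the background for the overload counts of the lists and markers below. Myl12b and Myl12a, regulatory chains of non-muscle myosin, rose 1.89-fold and 1.75-fold in Mstn-/- (adjusted p = 7.4e-11 and 3.0e-10). In wildtype Myl6, the essential chain of non-muscle and smooth muscle myosin, rose 2.07-fold and Myl12b 1.61-fold (adjusted p = 2.4e-12 and 5.8e-09), and Myl10 fell 1.29-fold (adjusted p = 4.5e-05). Without overload 4 of the 6 were lower in Mstn-/- muscle, beside 10.2% of tested genes. Among them were Myl12a (log2 difference -0.58, adjusted p = 9.2e-07) and Myl12b (1.39-fold, adjusted p = 2.8e-05). Myl10, also among them, lay low in every group, with geometric mean intensities from 114 to 159. Beside these, the filter was at 98.9 and array medians at 139 to 147. Myl9, the regulatory chain of smooth muscle, differed by -0.61 on the log2 scale (adjusted p = 0.0020). On 1 untreated wildtype array, replicate 2, the 6 smooth muscle markers summed to 7013 in intensity, against 2876 to 3223 on the other 5 of its group. Without that array, in a fit added after the data were seen, 4 of the 6 light chain genes were again lower, with Myl9 at -0.44 (adjusted p = 0.0011). The median difference of the smooth muscle markers between untreated Mstn-/- and untreated wildtype muscle was -0.28 with this array and -0.06 without it. The median overload difference of the 6 was 0.80 in Mstn-/- and 0.49 in wildtype.

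Outside the set, none of 13 tested kinase, phosphatase and calmodulin genes that act on light chain phosphorylation reached a 2-fold change in any of the 5 comparisons. Of these genes, 5 rose and 4 fell under overload in each genotype. The 9 of 13 that passed are near the share of all tested genes, 60.6% in Mstn-/- and 65.9% in wildtype. Ppp1cb, the catalytic subunit of myosin phosphatase, fell 1.46-fold in Mstn-/- and 1.48-fold in wildtype (adjusted p = 9.8e-09 and 2.6e-09). The calmodulin gene Calm3 fell 1.34-fold in Mstn-/- and 1.28-fold in wildtype (adjusted p = 3.0e-07 and 2.2e-06). The kinase Rock1 rose 1.44-fold and Mylk, the smooth muscle light chain kinase, 1.26-fold in Mstn-/- (adjusted p = 3.8e-05 and 5.4e-04). In wildtype Ppp1r14b, an inhibitor of the phosphatase, rose 1.38-fold and Ppp1r12a, its targeting subunit, 1.25-fold (adjusted p = 1.1e-05 and 3.9e-05). Ppp1r14b was the 1 gene of the list whose response differed between genotypes (-0.62 ± 0.11, adjusted p = 4.0e-04), beside 17.4% of tested genes.

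Of 10 tested genes of the thick filament and the M-band, the bridge at its middle, 2 rose and 5 fell under overload in each genotype. The 7 of 10 that passed are again near the share of all tested genes (60.6% in Mstn-/-, 65.9% in wildtype). Myom3, a myomesin, rose 1.94-fold in Mstn-/- and 1.79-fold in wildtype (adjusted p = 1.5e-07 and 7.1e-07). The myosin chaperone Unc45b fell 1.38-fold and 1.73-fold, and Myom1 1.35-fold and 1.69-fold, in Mstn-/- and in wildtype muscle (adjusted p from 3.0e-09 to 2.3e-04). Myom3 was also lower in Mstn-/- than in wildtype muscle, 1.79-fold under overload and 1.94-fold without (adjusted p = 5.3e-06 and 1.6e-06), and Myom2, the myomesin of fast fibres, was 1.74-fold and 1.26-fold higher (adjusted p = 1.4e-06 and 0.020). Of 9 heavy chain genes, 4 rose and 4 fell under overload in Mstn-/-, and 3 rose and 3 fell in wildtype. Fast Myh4 had an overload log2 difference of -0.26 in Mstn-/- and -1.08 in wildtype (adjusted p = 0.027 and 4.8e-10), and embryonic Myh3 rose 5.85-fold and 11.3-fold (adjusted p = 3.3e-13 and 4.8e-16). The slow heavy chain Myh7 was 6.23-fold lower in Mstn-/- than in wildtype muscle under overload and 3.80-fold lower without (adjusted p = 3.9e-08 and 6.3e-06). It was not alone among the 9 heavy chain genes. Under overload 5 were lower and 1 higher in Mstn-/-, beside 19% and 17.5% of tested genes. Without overload 7 were lower and none higher, beside 10.2% lower over all tested genes. Myh2 was 1.43-fold lower without overload (adjusted p = 4.3e-06). Of 9 genes known from regenerating or denervated fibres, Myh3 and Myh8 among them, 9 rose in Mstn-/- and 8 in wildtype under overload, with the fusion factor Mymk up 3.43-fold and 3.82-fold and the transcription factor Runx1 up 4.81-fold and 6.35-fold.

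Markers of other cells moved with overload. All 7 macrophage markers rose in both genotypes, and their summed intensity had medians of 9427 in overloaded and 3094 in untreated Mstn-/- muscle and of 10768 in overloaded and 2199 in untreated wildtype muscle. Fibroblast markers rose for 4 of 5 genes in Mstn-/- and 5 of 5 in wildtype, with median sums of 21759 in overloaded and 11721 in untreated Mstn-/- muscle and of 27987 in overloaded and 12418 in untreated wildtype muscle. Of 6 smooth muscle markers 3 rose and 1 fell in each genotype. Without untreated wildtype replicate 2, 5 rose and 1 fell in Mstn-/-, and 4 rose and 1 fell in wildtype. The Mstn-/- differences were the same in both fits (0.19 for Myh11 and 0.41 for Cnn1). Their SE, which rests on all groups, fell from 0.15 to 0.07 and from 0.24 to 0.12. The 9 fibre markers had a median overload difference of -0.17 in Mstn-/- (7 lower, 1 higher) and -0.30 in wildtype (6 lower, 1 higher). The part of these markers in the results above was not tested.

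As a second scale, chosen after the data were seen, all arrays were shifted to the same mean of the 9 fibre markers. None of the 10 genes is among these markers, but the fast-fibre genes Actn3, Tnnt3 and Tnni2 are. This moved the median overload difference over all tested genes to 0.10 in Mstn-/- and 0.27 in wildtype, against -0.06 in both as deposited. On that scale Myl1 and Mylpf were higher under overload, by 0.26 and 0.22 in Mstn-/- and by 0.39 and 0.39 in wildtype, and Mybpc1 turned to 0.14 in Mstn-/- and 0.13 in wildtype (adjusted p = 0.024 in both). Myl3 in Mstn-/- became 0.51 and passed (adjusted p = 0.028). Mybpc2 in Mstn-/- became -0.14 and no longer passed (adjusted p = 0.060), and in wildtype it was -0.59. The wildtype fall of Myl3 was -0.64 (adjusted p = 0.0045). The falls of Mylk2 and Mylk4, the rises of Myl4 and Myl6b, and the differences of response of Myl3, Myl6b, Mylk4 and Mybpc2 all passed on both scales. Mylpf no longer differed between overloaded genotypes by the test (0.03, adjusted p = 0.61).

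**Figure D5:**
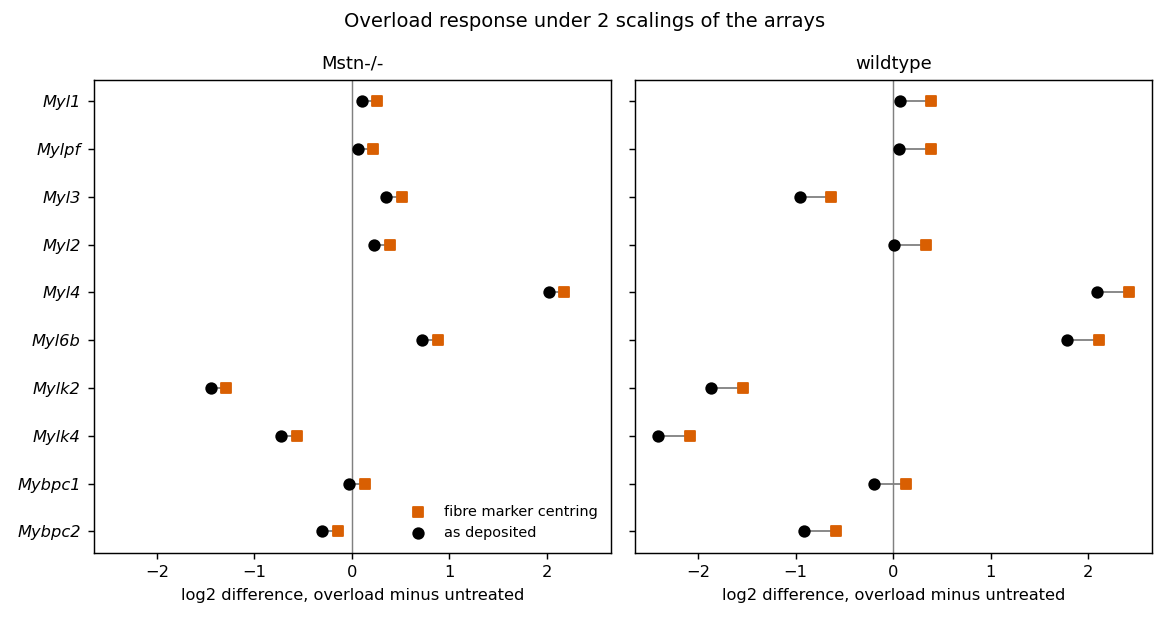
Log2 overload difference (x axis) of each of the 10 genes (y axis) in Mstn-/- (left) and wildtype (right), as deposited (circles) and with arrays shifted to the same mean of 9 fibre markers (squares). All genes move to the right by the same step within a genotype, which carries Mybpc1 across 0 in both and leaves Mylk2 and Mylk4 below it.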

How the data were processed

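RNA of whole plantaris was measured on 24 Affymetrix whole-transcript arrays, from 1000 ng of total RNA after removal of ribosomal RNA, per the labels' protocols. The authors deposited intensity values for probe sets, made by RMA according to the submitters' processing notes. The values run from 4.72 to 25588.9 and so are on a linear scale, and log2 was taken of the deposited intensities with no pseudocount. The sources used here name no genome build for the arrays.

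Of 34760 probe sets, 21640 carry 1 gene symbol. Per gene the probe set with the highest mean was used. Genes were tested where the mean of at least 1 group exceeded the 30th percentile of these probe sets (intensity 98.9). limma 3.58.1 in R 4.3.3 fitted 1 mean per group to all 24 arrays (20 residual degrees of freedom), with eBayes and Benjamini-Hochberg adjustment over 14499 genes, threshold 0.05, for 5 comparisons. All 10 genes were named in each comparison. Genes of each related list were picked from up to 2 higher and 2 lower per comparison, by the smallest adjusted p. Not all of these are given, so the named genes are a further choice. Where such a gene is also given for the other genotype or state, the value was added after it was seen. The same holds for Mstn and Myh7 under overload, Plcd4, Mfap2 and the marker genes. The genes and lists were chosen with earlier results of these data known. The fit was also tried on simulated data, with 200 of 14499 genes changed in overloaded wildtype arrays. It recovered 22.8% of changes of 0.2 on the log2 scale, 66.4% of 0.3, 93.6% of 0.5 and 99.6% of 1. Of its calls 5.61% were false. In the simulation each gene had the same spread in all groups, and few genes changed. In the real wildtype overload comparison 65.9% of tested genes passed, and some genes spread unequally between groups. The simulated rates therefore need not hold for the real comparisons.

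Confidence intervals are 95% and not adjusted. Precision is limited by the number of arrays. The fit pools the spread of the 4 groups. In wildtype the SD of Myl6b was 0.55 with overload and 0.09 without, and that of Mylk4 was 0.64 and 0.16. For these genes the pooled SE understates the spread of the overloaded arrays. Not every gene spread more under overload, with 0.07 and 0.09 for Myl1 in wildtype. With only the overloaded arrays fitted, 7 of the 10 still differed between genotypes. The median SE of a difference was 0.067. Same-numbered mice of different groups are different animals. Deviations from group means of same-numbered arrays had a median correlation of 0.02, above 0.1 in 9 of 36 pairs. Promoter windows came from RefSeq, with 9 of 10 genes matched.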

Additional observations from a re-analysis of the deposited data

Results flagged for a closer look

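The overload response differed between genotypes, by the interaction term of the fit, for 4 genes. As Mstn-/- minus wildtype on the log2 scale the difference was 1.31 for Myl3, -1.06 for Myl6b, 1.68 for Mylk4 and 0.61 for Mybpc2.

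Of 40 gene and group combinations examined for an array far from the other 5 of its group, 3 were found, where chance gives about 1 in 20. Myl2 was at 10.11 on the overloaded Mstn-/- array of replicate 5, where the next highest was 9.09. Myl2 was at 11.36 on the untreated wildtype array of replicate 3, where the next lowest was 11.54. Mylk2 was at 9.57 on the overloaded wildtype array of replicate 3, where the next lowest was 10.17. The first of these arrays, left out, gives the lowest Myl2 overload difference in Mstn-/- of any left-out array, 0.02 against 0.23.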

How the results depend on the processing

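The number of the 10 genes that passed stayed within 1.5 times of the reported number under all alternatives but 2. In untreated muscle 8 instead of 4 differed between genotypes when only the untreated arrays were fitted (with Myl6b, Mylk4, Mybpc1 and Mybpc2 added), and 8 instead of 5 passed for overload in Mstn-/- when arrays were centred on fibre markers. In the first of these fits the log2 differences of the added genes were unchanged and their SE was smaller. For Mybpc2 the SE was 0.04 against 0.08 with all arrays. In the second, all genes moved by the same step within a genotype. What underlies the spread and the step was not tested. With fibre marker centring, which was chosen after seeing the data, Mybpc1 turned sign to 0.14 in Mstn-/- and 0.13 in wildtype, and 84.6% of wildtype overload calls over all genes were higher, against 46.0% as deposited. That share was 74.8% against 44.7% for overload in Mstn-/-, 14.6% against 48.0% and 61.8% against 52.3% for genotype in overloaded and untreated muscle, and 13.8% against 51.4% for the difference of responses. Calls over all genes became 8500 against 5293 for genotype in overloaded muscle and 4451 against 2516 for the difference of responses. With the replicate number as a block, the counts were 5 for overload in Mstn-/-, 7 for overload in wildtype, 7 and 4 for genotype in overloaded and untreated muscle, and 4 for the difference of responses, as without it. Leaving out 1 array at a time gave 5 to 6, 7 to 7, 7 to 8, 4 to 4 and 4 to 5 in the same order. Of 490 single-gene values under the other alternatives 473 kept their side of the threshold, and their direction where either fit passed. Of 720 with an array left out 716 did, and the other 4 passed where they had not. Turns of sign between fits that both did not pass were not counted. Myl1 between overloaded genotypes, for example, was 0.06 as reported and -0.09 at its lowest.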
